A study of Homo sapiens with 16 samples.

Results

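The genes described here are the clustered histone genes of the human genome, the rows of the deposited count table whose symbols start with HIST1H, HIST2H, HIST3H or HIST4H. Names of pseudogenes were left out, and a gene was kept when its mean over the 16 libraries was at least 0.2 CPM, the share of a library's counts scaled to 1000000. The rule took 34 genes, out of 75 such symbols without a pseudogene name and 58243 genes in all. Of the 34, 2 code for the linker histone H1, 6 for H2A, 15 for H2B, 6 for H3 and 5 for H4. The symbols place 26 in cluster HIST1, 5 in HIST2, 2 in HIST3 and 1 in HIST4. Variant histones such as H2AFZ and H3F3B have other symbols, so none is among the 34. A separate list of 12 such genes, called replication-independent here, is given below. At the edge of the rule, HIST1H2BG (0.219 CPM), HIST1H3B (0.221) and HIST1H4C (0.229) were just inside, and HIST2H4A (0.182), HIST1H3A (0.165) and HIST1H4D (0.150) just outside.

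U-251 MG is a long-established line of human glioblastoma cells, grown here with serum, and its RNA was selected for poly(A) tails before sequencing. All groups were treated from 24 h after seeding for 48 h, and each held 4 libraries. One of the 4 groups received DMSO, the solvent control. Another received simvastatin at 0.06 µM and a further one 0.6 µM irinotecan, and the last received both drugs at these doses, called the combination. Simvastatin is a statin, an inhibitor of cholesterol synthesis, while irinotecan yields a metabolite that traps topoisomerase I on DNA. The study asked which genes the drugs affect alone and together. A single cell line was used. No label says that a group's libraries were grown as separate cultures, and the spread behind a p-value may therefore be technical.

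Core histones H2A, H2B, H3 and H4 form the octamer that DNA wraps around, and H1 binds the linker DNA between octamers. Clustered histone genes are transcribed mainly in S phase, and their mRNAs normally end in a short stem-loop, bound by the protein SLBP, in place of a poly(A) tail. Some of these genes also give longer, polyadenylated mRNAs, a form known from differentiated or non-dividing cells, and a poly(A) library reads mostly that form.

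The transcript models of GENCODE 29 on GRCh38 were searched for the histone stem-loop consensus, because the loop and what follows it decide whether a poly(A) library can hold the RNA. Of the 33 members with an entry there, 22 had a match in the 3′ end of a model, against 58 of 58602 other genes with a match anywhere in a transcript (0.099%). These other genes include histone pseudogenes and histone genes with other symbols. Of the 41 clustered histone genes below the level threshold, 12 had a match, and in 5 a model ran on for more than 300 bases after it. The sites below, taken from the GENCODE transcripts on the sense strand, show the loops of members with leading levels or with a rare form. Capitals mark the stem-loop itself, with 5 bases on each side.
HIST1H2AC: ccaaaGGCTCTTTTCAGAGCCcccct
HIST2H2BE: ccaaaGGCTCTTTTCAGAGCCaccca
HIST3H2A: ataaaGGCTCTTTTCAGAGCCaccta
HIST1H2BD: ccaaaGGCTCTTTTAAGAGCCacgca
HIST1H4I: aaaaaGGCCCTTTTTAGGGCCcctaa
HIST1H3E: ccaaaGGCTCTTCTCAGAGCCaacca
HIST1H4H: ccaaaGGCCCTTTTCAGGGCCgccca
HIST1H2AG: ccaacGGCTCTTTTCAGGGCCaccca

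The 22 genes held 6 distinct loops. The loop of HIST1H2AC, HIST2H2BE and HIST3H2A was in 12 of them, that of HIST1H2BD in 4 and that of HIST1H4H in 3. The loops of HIST1H4I, HIST1H3E and HIST1H2AG were each in 1. The loop began 23 to 56 bases after the stop codon (median 35.5). In 17 of the 22 genes a model ran on for more than 300 bases after the loop, and over all 22 the median of the longest such tail was 1040.5 bases. HIST2H2BE had 1729 bases after its loop, HIST1H2AC 1128 and HIST3H2A 390. After the loop, 15 genes had AATAAA or ATTAAA, the letters of a poly(A) signal. HIST1H3E and HIST1H4H had both kinds of model, with tails of 5 and 1862 bases and of 18 and 1655 bases. The models of 7 members, among them HIST1H1C, HIST1H2BK and HIST2H2AC, ended at the stop codon, so no loop could be looked for. These models say what can be transcribed, not which form was sequenced, and the counts per gene do not separate the forms.

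**Figure D1:**
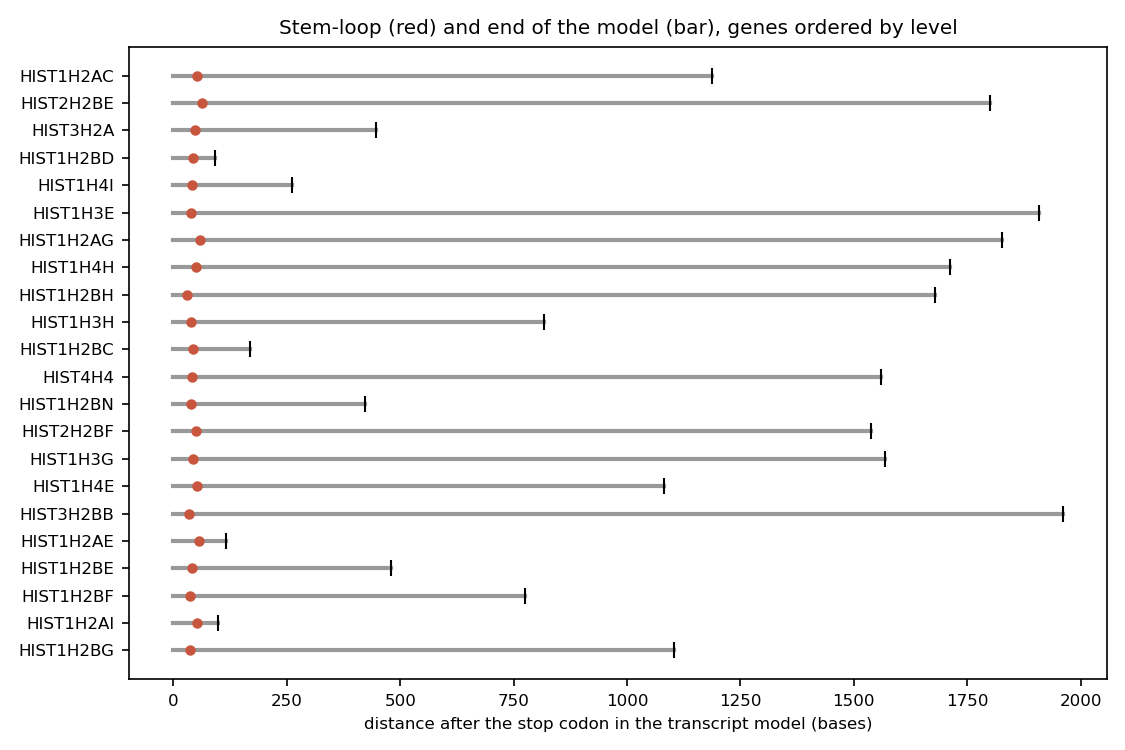
Transcript models of the 22 histone genes with a stem-loop, ordered by level. The x axis is the distance after the stop codon in bases, the red point is the stem-loop and the black bar the end of the longest model. All loops lie close to the stop codon, while 17 models run on for more than 300 bases.

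The histone RNAs were a small part of each library. The 34 genes together took 0.00683% to 0.00810% of the counts, of library totals from 24159673 to 32318888 counts. HIST1H2AC, HIST1H1C and HIST2H2BE held 47.6% of that sum. Per length, in CPM divided by kilobases (RPKM) over the GENCODE exons, HIST1H1C was highest with a mean of 16.9 over the 16 libraries, followed by HIST1H2BK with 13.3, HIST1H2AC with 9.37, HIST3H2A with 6.10 and HIST1H2BD with 4.81. The first 2 have models without untranslated ends, which may raise a level per length, depending on the exons over which reads were counted. HIST1H2BK also shares 74.1% of its 50-base stretches with other genes, most with H2BFS, and the sources do not say how such reads were counted. For comparison, in the separate list of histone genes with other symbols, H3F3B had 168 RPKM, H2AFZ 147 and H2AFX 131. Of 14 genes with known non-polyadenylated RNAs, RN7SK, RMRP and RPPH1 were at 0 counts in all 16 libraries. The list as a whole was not at 0. Its mean sum was 13.4 CPM with DMSO, 27.8 with simvastatin, 12.9 under irinotecan alone and 16.9 in the combination. RN7SL2, given below, belongs to it.

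Tests covered 26 of the 34 genes, which passed the filter on low counts. HIST1H1E, HIST1H2BF, HIST1H2BG, HIST1H2BO, HIST1H3B, HIST1H3C, HIST1H4C and HIST2H2BA did not, with at most 21 counts in any library. A gene was called when its edgeR quasi-likelihood p, adjusted by Benjamini-Hochberg over all 16647 genes tested, was under 0.05. Log2 fold changes are given ± their standard error, and single-gene levels are in CPM scaled by TMM factors. In bulk RNA, fewer cells in S phase and less histone RNA per cell cannot be told apart.

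Irinotecan lowered 3 of the 26 tested histone genes and raised none, 11.5% where 24.1% of all genes were called and 11.7% called lower. The 3 were the linker histone gene HIST1H1C and the H2A genes HIST3H2A and HIST2H2AC. The combination lowered 4, the same 3 and HIST1H3E, or 15.4% where 28.1% of all genes were called and 13% called lower. The shares of lower calls were near those of all genes. Libraries did not overlap DMSO in 4 of the 26 with irinotecan (15.4%) and in 5 with the combination (19.2%). Of all genes tested, 23.4% and 26.2% did not overlap. Of the 7849 genes with mean levels in the range of the tested members, 16.5% were called with irinotecan and 19.2% with the combination. Called lower were 4.69% and 7.58% of them, less than the members' shares, which rest on 3 and 4 genes, and this difference was not tested. Simvastatin changed none of the 26 by edgeR or DESeq2, where 6% of all genes were called, and 1 (HIST1H1C) had an unadjusted p under 0.05. The 3 comparisons share the DMSO libraries, so their calls are not independent.

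**Figure D2:**
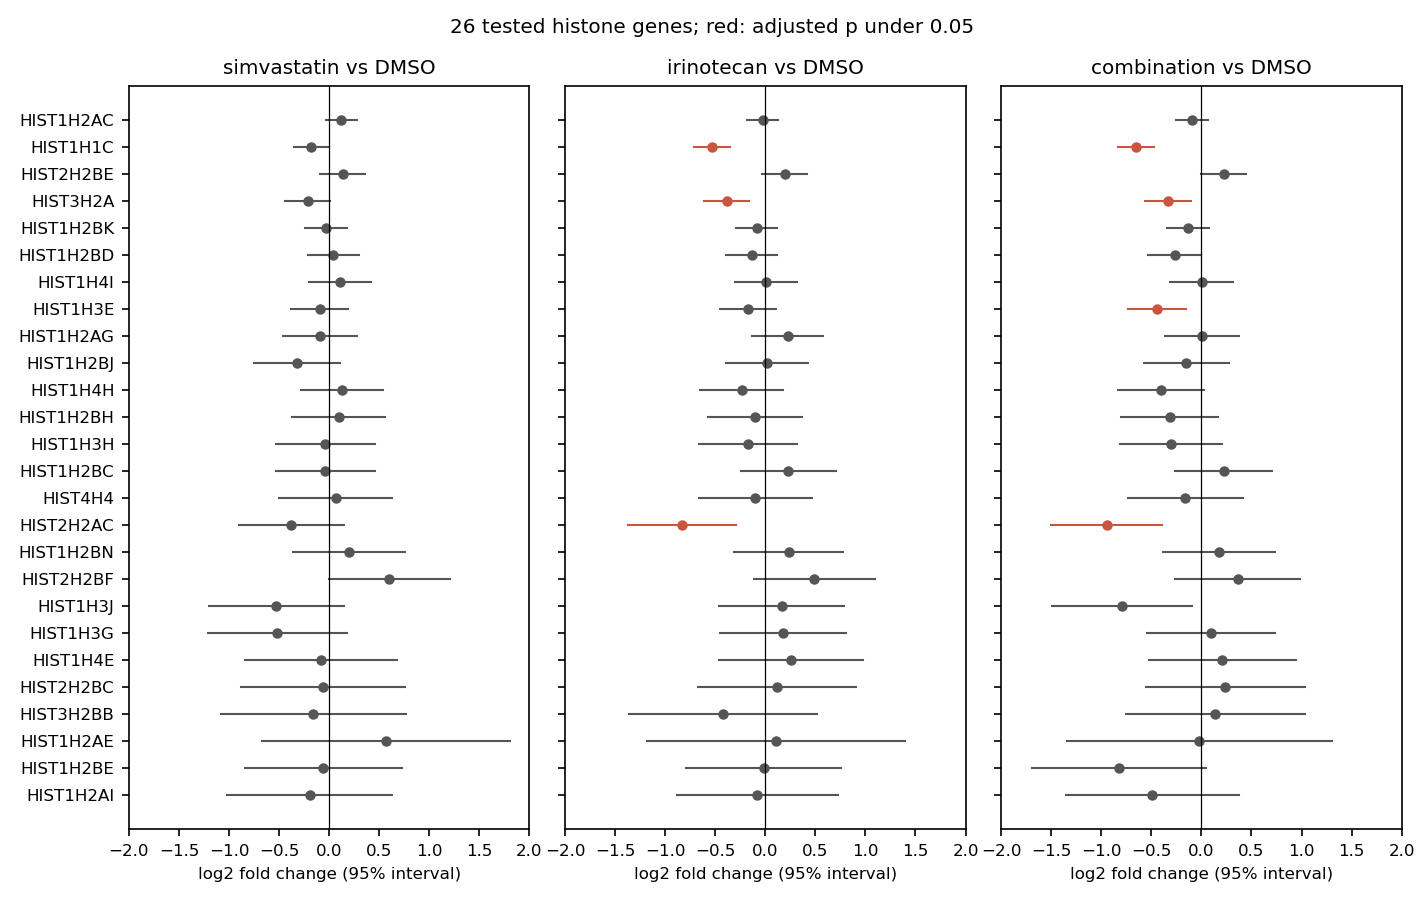
Log2 fold changes of the 26 tested histone genes against DMSO (x axis, points with 95% intervals), ordered by level from top to bottom. Red marks an adjusted p under 0.05, met by 3 genes with irinotecan, 4 in the combination and 0 with simvastatin, all lower, and intervals widen towards the low genes.

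HIST1H1C (ENSG00000187837; GRCh38 chromosome 6, 26055787 to 26056428, minus strand) codes for the linker histone now named H1-2. Its levels in DMSO replicates 1 to 4 were 13.5, 13.5, 13.7 and 13.3 CPM. With simvastatin they were 10.4, 13.6, 10.7 and 13.1 CPM. With irinotecan they were 9.55, 10.1, 9.03 and 8.61 CPM, and with the combination 8.74, 7.53, 9.41 and 8.68 CPM. All 8 libraries with irinotecan lay below all 8 without it. Simvastatin replicates 1, 3 and 4 lay below every DMSO library, replicate 4 only slightly, and replicate 2 lay within the DMSO range. The log2 fold change was -0.53 ± 0.09 with irinotecan (adjusted p = 2.09e-05, edgeR) and -0.65 ± 0.09 with the combination (adjusted p = 1.14e-06, edgeR). Simvastatin gave -0.18 ± 0.09 (adjusted p = 0.269, edgeR). The combination was also lower than simvastatin alone (-0.47 ± 0.09, adjusted p = 0.000187, edgeR). Against irinotecan alone it differed by -0.12, with a 95% interval of -0.31 to 0.07, which holds 0.

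In simvastatin replicates 1 and 3, where HIST1H1C was lowest in that group, RN7SL2 was high, at 36.3 and 35.7 CPM. It had 22.6 and 17.7 CPM in replicates 2 and 4. RN7SL2 is a signal recognition particle RNA without a poly(A) tail. It was called higher with simvastatin (1.09 ± 0.29, adjusted p = 0.0484, edgeR), and whether it bears on HIST1H1C was not tested. HIST1H1E, the other H1 gene, codes for H1-4 and was not tested. Its means were 0.272 ± 0.082 CPM (SD, n = 4) with DMSO, 0.183 ± 0.082 with simvastatin, 0.298 ± 0.197 under irinotecan alone and 0.260 ± 0.021 in the combination. These spreads overlap.

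The replication-independent linker histones H1F0 and H1FX were far more abundant than HIST1H1C and were lower in the same groups. H1F0, a linker histone known from non-dividing and differentiated cells, had 345, 332, 371 and 321 CPM in DMSO replicates 1 to 4 and 309, 312, 335 and 317 CPM with simvastatin. With irinotecan it had 187, 190, 186 and 182 CPM, and with the combination 186, 184, 180 and 186 CPM. The libraries with irinotecan lay within 180 to 190 CPM, far below the others. Its log2 fold change was -0.88 ± 0.04 with irinotecan and -0.89 ± 0.04 with the combination (adjusted p = 1.14e-16 and 9.18e-17, edgeR). H1FX went from 87.1 ± 2.9 CPM (SD, n = 4) with DMSO to 79.1 ± 5.3 with simvastatin, 58.7 ± 3.7 under irinotecan alone and 54.2 ± 2.5 in the combination. Its changes were -0.57 ± 0.05 with irinotecan and -0.68 ± 0.05 with the combination (adjusted p = 3.09e-10 and 6.51e-12, edgeR).

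**Figure D3:**
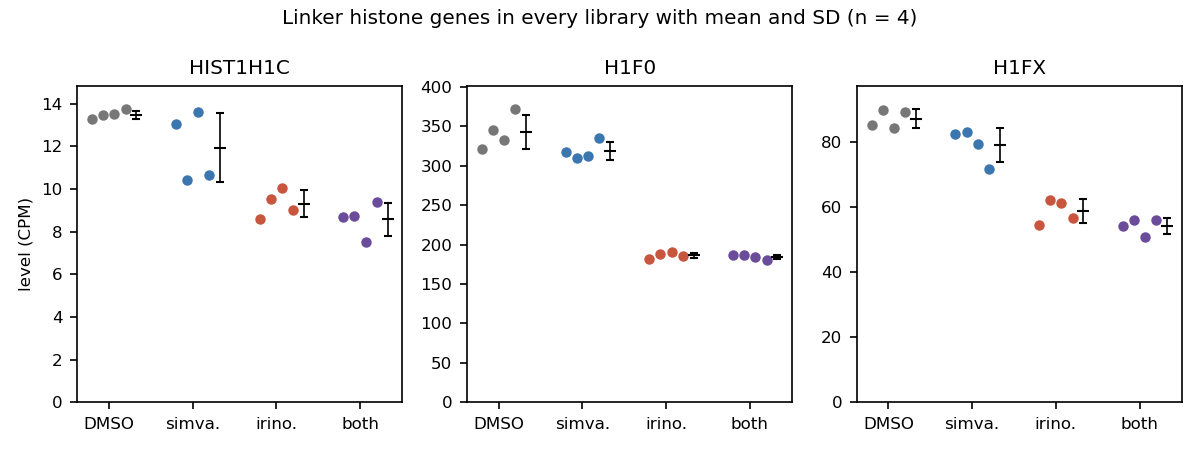
Levels in CPM (y axis, from 0) of HIST1H1C, H1F0 and H1FX in every library (points) with the mean and SD of 4 libraries (bars); "both" is the combination. In all 3 genes every library with irinotecan lies below every library without it. The share of all genes with this pattern was not computed.

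HIST3H2A (ENSG00000181218; chromosome 1, 228456979 to 228457873, minus strand) codes for an H2A protein and sits in the small HIST3 cluster. Its levels in replicates 1 to 4 were 6.77, 5.88, 6.83 and 6.04 CPM with DMSO and 4.92, 6.31, 4.99 and 5.85 CPM with simvastatin. They were 5.39, 4.86, 4.48 and 4.78 CPM with irinotecan and 4.41, 5.63, 5.59 and 4.60 CPM with the combination. Libraries with irinotecan, alone or combined, did not overlap DMSO, and simvastatin replicates 1 and 3 were again the lower ones of their group. The log2 fold change was -0.39 ± 0.11 with irinotecan (adjusted p = 0.00931, edgeR) and -0.33 ± 0.11 with the combination (adjusted p = 0.0236, edgeR). The combination call was lost when DMSO replicate 1 or 3 or combination replicate 1 or 4 was left out, with adjusted p up to 0.0942, and when libraries were scaled by their sizes alone (adjusted p = 0.0569). It was also lost in the 12 numbered libraries, without a replicate block (adjusted p = 0.0906, edgeR) and with one (adjusted p = 0.0552, edgeR).

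HIST2H2AC (ENSG00000184260; chromosome 1, 149886975 to 149887364, plus strand), another H2A gene, had the largest changes but only 10 to 41 counts per library. Its levels were 1.37, 0.994, 1.26 and 1.32 CPM in DMSO replicates 1 to 4, and 0.908, 1.07, 1.07 and 0.766 CPM with simvastatin. They were 0.941, 0.876, 0.347 and 0.598 CPM with irinotecan and 0.608, 0.788, 0.721 and 0.448 CPM with the combination. DMSO did not overlap either group with irinotecan, and irinotecan replicate 3 was lowest of all. The log2 fold change was -0.83 ± 0.26 with irinotecan (adjusted p = 0.0192, edgeR) and -0.94 ± 0.27 with the combination (adjusted p = 0.0087, edgeR). Without irinotecan replicate 3 the first change was -0.62 (adjusted p = 0.0919), and without DMSO replicate 1 or 4 it also missed the threshold (adjusted p = 0.0524 and 0.0515). The gene shares 30.5% of its 50-base stretches with other genes, most with HIST2H2AA3 and HIST2H2AA4 in equal measure, so part of its reads may be counted elsewhere or not at all.

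HIST1H3E (ENSG00000274750; chromosome 6, 26224199 to 26227473, plus strand) codes for histone H3. Its levels were 2.92, 3.98, 3.39 and 3.20 CPM in DMSO replicates 1 to 4 and 3.71, 2.81, 3.34 and 2.66 CPM with simvastatin. They were 2.71, 3.14, 3.12 and 2.91 CPM with irinotecan and 2.77, 2.44, 2.16 and 2.48 CPM with the combination. Only the combination did not overlap DMSO. Its log2 fold change was -0.45 ± 0.14 with the combination (adjusted p = 0.0188, edgeR) and -0.17 ± 0.14 with irinotecan (adjusted p = 0.41, edgeR). The combination differed from irinotecan by -0.27 ± 0.14 (adjusted p = 0.318, edgeR), so a difference between these groups was not shown. The call was lost without DMSO replicate 2 (adjusted p = 0.0808) or combination replicate 3 (adjusted p = 0.0693).

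**Figure D4:**
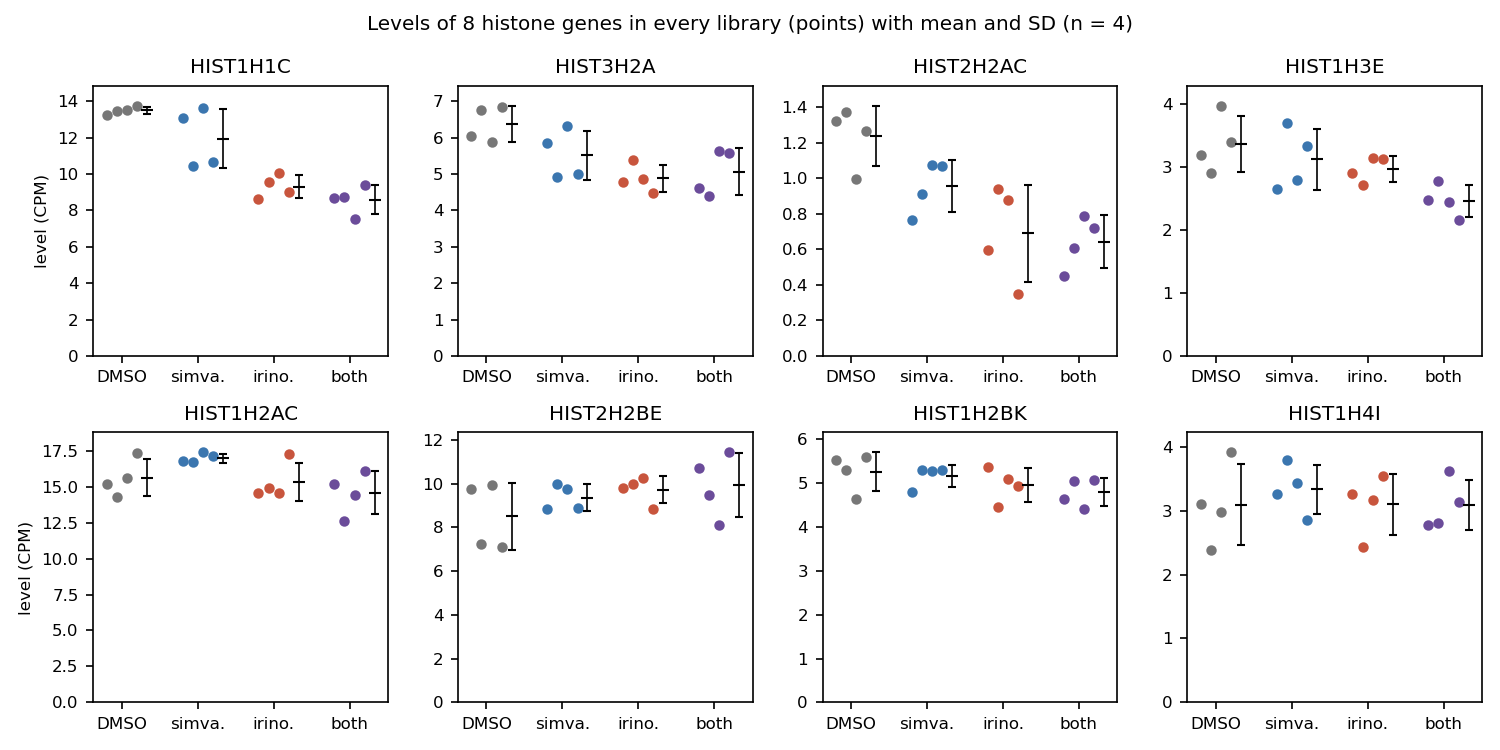
Levels in CPM (y axis, from 0) of 8 histone genes in every library (points) with the mean and SD of 4 libraries (bars); "both" is the combination. The 4 genes in the top row were called lower with the combination, and the bottom row holds abundant members that were not called against DMSO.

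Several abundant members did not pass the test against DMSO, among them HIST1H2AC, the highest by mean CPM, and HIST2H2BE. HIST1H2AC (ENSG00000180573; chromosome 6, 26124145 to 26139116, plus strand), an H2A gene, had 14.3, 15.6, 17.4 and 15.2 CPM in DMSO replicates 1 to 4 and 16.7, 17.4, 17.1 and 16.8 CPM with simvastatin. It had 14.9, 14.5, 17.3 and 14.6 CPM with irinotecan and 12.6, 14.4, 16.1 and 15.2 CPM with the combination. The irinotecan and combination libraries overlapped DMSO. The combination lay below simvastatin alone in every library, and there HIST1H2AC fell by 0.22 ± 0.08 on the log2 scale (adjusted p = 0.0352, edgeR). HIST1H1C was the other of 2 genes of 26 called lower in that comparison, where 25.6% of all genes were called and 11.7% called lower. These 2 (7.69%) were also the members without overlap there, against 25.8% of all genes. The HIST1H2AC call was lost in 6 of 8 fits that left out 1 library of these groups (adjusted p up to 0.158), with changes of -0.27 to -0.16. These 6 were the fits without any one of the 4 simvastatin libraries and those without combination replicate 1 or 2. Without simvastatin replicate 1 or 4 or combination replicate 1, another member was called in its place.

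No H2B gene was called in the fit over all 16 libraries. HIST2H2BE, the most abundant of them by CPM, had 7.24, 9.94, 7.11 and 9.75 CPM in DMSO replicates 1 to 4 and 9.99, 9.78, 8.88 and 8.83 CPM with simvastatin. It had 9.99, 10.3, 8.85 and 9.80 CPM with irinotecan and 9.46, 8.12, 11.4 and 10.7 CPM with the combination. DMSO replicates 1 and 3 were the lowest, the groups overlapped, and the change with the combination was 0.22 ± 0.11 (adjusted p = 0.13, edgeR). HIST1H2BK, an H2B gene with the shared sequence named above, had 5.29, 4.64, 5.61 and 5.52 CPM with DMSO, 5.30, 5.28, 5.30 and 4.80 with simvastatin, 4.45, 5.11, 4.93 and 5.38 with irinotecan, and 5.06, 4.41, 5.08 and 4.64 with the combination. Its changes against DMSO lay between -0.13 and -0.03, and every 95% interval of these held 0. Of the 11 tested H2B genes none passed in any comparison by edgeR or DESeq2 over the 16 libraries, while HIST1H2BD was called lower with the combination in the 12 numbered libraries with a replicate block, and HIST2H2BE was called higher with the combination when combination replicate 2 was left out. Over the 16 libraries 2 of them, HIST2H2BE and HIST1H2BD, had an unadjusted p under 0.05 with the combination. Picked after their values were seen, HIST2H2BF with irinotecan (0.49) and HIST1H2BE with the combination (-0.82) did not overlap DMSO either, without a call.

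After HIST1H3E, the next H3 gene by level and the leading H4 genes overlapped between groups. HIST1H3H, an H3 gene, had 0.828, 1.99, 1.38 and 1.23 CPM in DMSO replicates 1 to 4 and 1.59, 0.990, 1.38 and 1.25 with simvastatin. It had 0.905, 1.30, 1.56 and 0.956 CPM with irinotecan and 1.18, 0.827, 1.19 and 1.14 with the combination. The range within DMSO was wider than within each other group, and the changes were -0.17 ± 0.24 with irinotecan and -0.30 ± 0.25 with the combination. HIST1H4I, the most abundant H4 gene, had 2.38, 2.98, 3.91 and 3.10 CPM with DMSO, 3.79, 3.42, 2.86 and 3.27 with simvastatin, 2.42, 3.17, 3.54 and 3.27 with irinotecan, and 2.81, 3.62, 3.14 and 2.77 with the combination. Its group means lay between 3.09 and 3.33 CPM, and the 95% interval of its log2 change with the combination was -0.31 to 0.32. HIST1H4H, another H4 gene, had 1.51, 2.65, 1.58 and 2.29 CPM with DMSO, 1.67, 2.60, 2.37 and 2.14 with simvastatin, 2.06, 1.87, 1.56 and 1.27 with irinotecan, and 1.90, 1.38, 1.19 and 1.59 with the combination. The combination was lower than simvastatin by 0.53 ± 0.21 on the log2 scale without passing the threshold (adjusted p = 0.0591, edgeR).

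Summed over each class, in CPM of the library totals and without a test, H1 went from 13.4 ± 0.17 (SD, n = 4) with DMSO to 11.9 ± 1.6 with simvastatin, 9.87 ± 0.46 under irinotecan alone and 8.98 ± 0.76 in the combination. H2B stood at 25.7 ± 1.1, 26.5 ± 1.7, 27.9 ± 1.5 and 26.4 ± 1.2 in the same order of groups, so the H2B sum did not follow H1. These sums carry no TMM factors. With library sizes alone the median log2 change of all genes was 0.07 with irinotecan and 0.06 with the combination, so small rises in a sum are not read as changes. The H2A sums were 25.5 ± 1.8, 25.8 ± 1.1, 24.8 ± 1.1 and 23.4 ± 1.8. Those of H3 were 6.46 ± 0.72, 5.80 ± 0.66, 6.42 ± 0.64 and 5.10 ± 0.67, and those of H4 6.62 ± 0.90, 7.17 ± 0.63, 6.64 ± 0.55 and 6.28 ± 0.57. H1 was the only class whose irinotecan and combination libraries all lay below all DMSO libraries, and HIST1H1C made up nearly all of it. With TMM factors, the medians of the log2 fold changes over the 26 tested genes were -0.05 (simvastatin), -0.02 (irinotecan) and -0.14 (combination). Those of all genes tested were within 0.01 of 0. With the combination 16 of 26 estimates were below 0, and with irinotecan 14 of 26.

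How small a change the data could show differed by gene. Standard errors ran from 0.08 for HIST1H2AC to 0.62 for HIST1H2AE with irinotecan. HIST1H2AI, the least abundant tested gene, had 0.39. Of the 26 genes, the 95% interval stayed within a 2-fold change in either direction for 22 with irinotecan, 19 with the combination and 20 with simvastatin. For the others the interval held changes of more than 2-fold.

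Adding simvastatin to irinotecan changed none of the 26 by edgeR or DESeq2, where 5.94% of all genes were called. HIST1H3J, an H3 gene, was the only member with an unadjusted p under 0.05 there, at -0.95 (adjusted p = 0.0935, edgeR). The interaction asks how far both drugs together depart from adding their separate log2 changes. It was called in none of the 26 by edgeR or DESeq2 and none had an unadjusted p under 0.05, where 0.012% of all genes were called. For HIST1H1C it was 0.06 with a 95% interval of -0.19 to 0.32.

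Several members lie head to head with another histone gene and start from the same short stretch of DNA. By strand and distance there were 6 such pairs in which both genes were members, with 218 to 356 bases between their GENCODE gene models. The widest, HIST1H3J and HIST1H2BO, may not be head to head. HIST1H2AM, not a member, overlaps HIST1H3J on the same strand and lies nearer to HIST1H2BO, at 313 bases. The other pairs had 218 to 322 bases. Some of these models lack untranslated ends, so these are not distances between transcription starts. Within a pair the level per length differed between 1.15-fold (HIST1H3J and HIST1H2BO) and 37.6-fold (HIST3H2A over HIST3H2BB). Without the uncertain pair the smallest was 1.89-fold (HIST2H2BE over HIST2H2AC). In the pair on chromosome 1 with 322 bases between the gene models, HIST2H2AC was lower with irinotecan while HIST2H2BE was not called. The log2 ratio of HIST2H2AC to HIST2H2BE was -2.77 ± 0.42 (SD, n = 4) with DMSO, -3.92 ± 0.57 with irinotecan and -3.97 ± 0.50 with the combination. Both differences, -1.14 and -1.20, had a two-sided exact permutation p of 0.0286, the smallest that 4 against 4 libraries allow, and 0.114 after Benjamini-Hochberg adjustment over 8 such ratio tests. These ratio tests were chosen after the values had been seen, and the other 6 had exact permutation p from 0.0571 to 0.971.

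The upstream sequences of HIST1H1C and HIST2H2AC are printed because the first had the smallest p of all members and the second belongs to the pair just described. They are the 250 bases before the annotated start in RefSeq on GRCh38.p14, read in the direction of the gene (HIST1H1C from chr6:26056471-26056720, minus strand; HIST2H2AC from chr1:149886668-149886917, plus strand). Capitals mark the TATA box searched as TATAAA, the CCAAT box, the octamer searched as ATTTGCAT and the H1 box searched as AAACACA, each on either strand.
HIST1H1C: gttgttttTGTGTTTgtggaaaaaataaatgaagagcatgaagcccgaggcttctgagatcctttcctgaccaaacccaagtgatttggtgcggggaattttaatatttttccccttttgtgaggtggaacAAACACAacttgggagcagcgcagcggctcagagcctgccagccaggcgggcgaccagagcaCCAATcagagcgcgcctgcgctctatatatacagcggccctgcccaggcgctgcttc
HIST2H2AC: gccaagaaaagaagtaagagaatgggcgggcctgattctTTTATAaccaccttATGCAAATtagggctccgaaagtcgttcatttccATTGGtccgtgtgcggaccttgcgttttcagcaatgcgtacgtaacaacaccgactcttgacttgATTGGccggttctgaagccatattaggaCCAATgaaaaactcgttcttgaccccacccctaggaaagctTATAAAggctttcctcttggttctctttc

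The octamer, the site known for the factor OCT1 in H2B genes, lies beside the first marked TATA box of HIST2H2AC, at the far end of the window, which is the side of HIST2H2BE. Of the 34 members, 27 matched a RefSeq promoter of 300 bases (250 before and 50 after the start), and 35116 promoters were searched in all. The octamer was in 13 of the 27, namely 9 of 11 H2B genes and 4 of 6 H2A genes and no gene of the other classes, against 1.77% of all promoters. Head-to-head pairs share much of this sequence, so their matches are not independent. CCAAT was in 24 of 27 against 34.6%, TATAAA in 15 of 27 against 11.5%, and the H1 box in both H1 genes and HIST2H2AC against 5.64%. In HIST2H2AC the H1 box lies after the start and is not printed. The matches describe letters only. HIST2H2AC and HIST2H2BE both had the octamer, CCAAT and TATAAA, and HIST2H2AC alone of the pair had the H1 box. Whether any of these letters bears on the calls was not tested.

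All 12 genes of the list called replication-independent were tested. How far each is expressed outside replication was not examined. With irinotecan 5 of 12 were called lower and none higher, and with the combination 8 of 12 were lower and none higher, with medians of -0.06 and -0.15. These are 41.7% and 66.7%, where 11.7% and 13% of all genes were called lower. With libraries scaled by their sizes alone, 4 and 6 of the 12 were called lower and none higher. Under that scaling 7 of 12 estimates with irinotecan were above 0, where 3 of 12 were with TMM factors. Besides H1F0 and H1FX, H3F3B, which codes for the H3 variant deposited outside replication, changed by -0.26 ± 0.03 with irinotecan and -0.28 ± 0.03 with the combination (adjusted p = 3.20e-07 and 6.05e-08, edgeR). Simvastatin lowered H2AFX by 0.15 ± 0.04 and H2AFJ by 0.23 ± 0.07 on the log2 scale (adjusted p = 0.0367 and 0.0458, edgeR). CENPA, the histone of centromeres, was the only one of the 12 called when simvastatin was added to irinotecan (-0.22 ± 0.05, adjusted p = 0.0111, edgeR). Their standard errors against DMSO were smaller (median 0.05, against 0.24 for the 26), and the difference between the lists was not tested.

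Of 18 genes that process histone mRNA, irinotecan lowered 1, SRRT (-0.13 ± 0.04), a cap-binding partner, and the combination raised 3 and lowered 2, among them SRRT again (-0.26 ± 0.04, adjusted p = 2.41e-05, edgeR). The shares called were 5.56% with irinotecan, where 24.1% of all genes were called, and 27.8% with the combination, where 28.1% were. SLBP, named for its role and not for its p, had 96.4 ± 5.0 CPM (SD, n = 4) with DMSO, 89.2 ± 3.7 with simvastatin, 96.8 ± 3.5 under irinotecan alone and 93.4 ± 1.3 in the combination, and was not called in any comparison. With libraries scaled by their sizes alone, which moved the median of all genes by 0.07 with irinotecan, 6 of the 18 were instead called higher with irinotecan and none lower.

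Of 20 histone chaperones, irinotecan raised 4 and lowered 2. ASF1B, which hands H3 and H4 to the replication fork, rose by 0.21 ± 0.05, and HJURP, the chaperone of CENPA, rose by 0.20 ± 0.04. SSRP1, a subunit of the chaperone FACT, changed by -0.20 ± 0.04 (adjusted p = 6.41e-05, edgeR). The combination raised 3 and lowered 3. The share called was 30% in both comparisons, against 24.1% and 28.1% of all genes. With library sizes alone irinotecan raised 10 and lowered 1, so the balance of directions in this list depends on the scaling.

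Genes of S phase, when the clustered genes are normally transcribed, went both ways. Of 14, irinotecan raised 6 and lowered 5, and the combination raised 3 and lowered 6. The helicase subunits MCM6 and MCM5 changed by -0.50 ± 0.03 and -0.42 ± 0.03 with irinotecan, and CDT1, the licensing factor that loads them, rose by 0.49 ± 0.05 (adjusted p from 1.13e-12 to 1.37e-08, edgeR). Simvastatin lowered 5 and raised none. The shares called were 78.6%, 64.3% and 35.7%, against 24.1%, 28.1% and 6% of all genes. Standard errors of the S phase genes against DMSO were smaller (median 0.04, against 0.08 for all genes), and the differences in share were not tested. What these genes contribute to the histone levels was not tested.

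**Figure D5:**
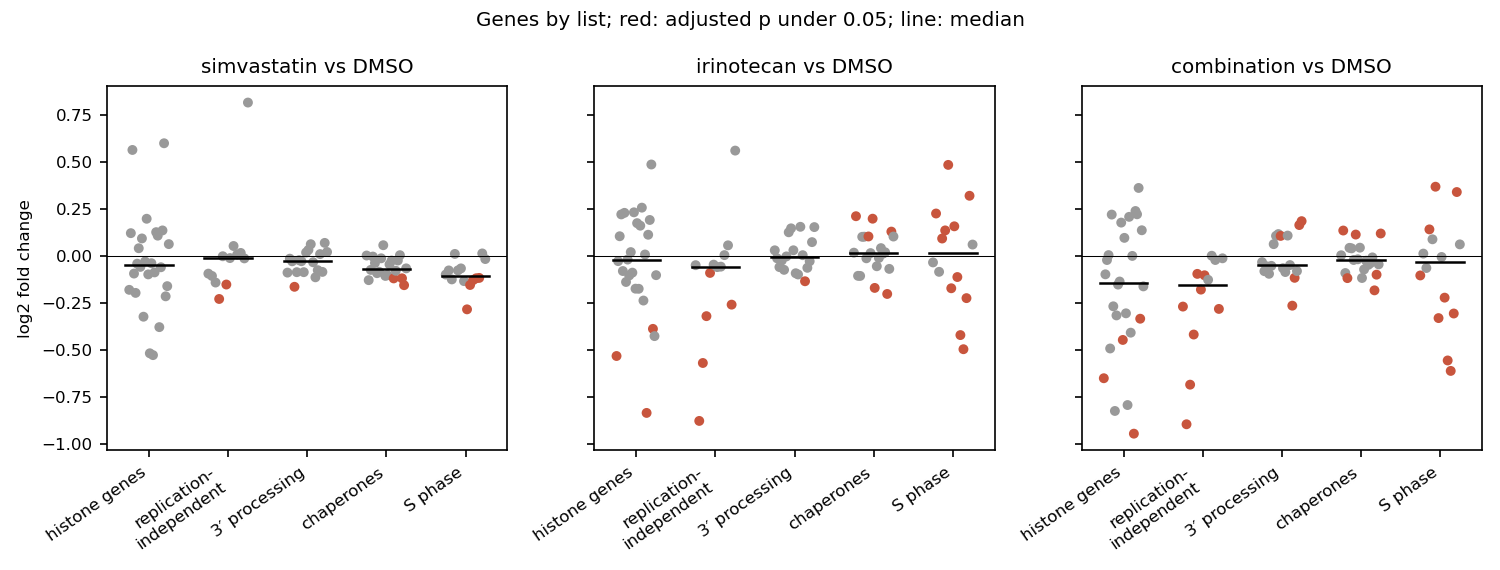
Log2 fold changes against DMSO (y axis) of the tested histone genes and of the 4 gene lists (x axis), with 1 point per gene, red where the adjusted p was under 0.05 and a black line at each median. Replication-independent histone genes called with irinotecan or the combination all lie below 0, while the S phase genes lie on both sides.

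The cell type was checked against its markers. The 9 glial and glioma markers were all present, from CD44 at 3256 ± 98.4 CPM (SD, n = 4) with DMSO to S100B at 4.74 ± 0.42 CPM. With irinotecan and with the combination 8 of the 9 were called lower (88.9%), where 11.7% and 13% of all genes were. Their standard errors in these comparisons were smaller (median 0.04, against 0.08 for all genes). Their sum ranged from 7412 to 7645 CPM with DMSO, from 7185 to 7295 with simvastatin, from 5806 to 5953 under irinotecan alone and from 5679 to 5839 in the combination. Markers of blood, endothelial, epithelial, neuronal and oligodendrocyte cells summed to 2.08 to 3.73 CPM over all libraries, with CD68, EPCAM and PTPRC near 0. The part of the falling glial markers in the histone results was not tested.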

How the data were processed

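Poly(A) RNA of 16 U-251 MG libraries was measured by RNA-seq. The deposited file holds counts, whole numbers per gene that the authors had not normalised, for 58243 Ensembl genes. Per the submitters' processing notes, the tools were FastQC, STAR 2.7.1 and DESeq2 and the build was GRCh38. How reads were assigned to genes (counter, annotation release, strand) is not given in the sources used here, so reads of paralogs and of overlapping genes are uncertain. In each group the library without a number in its title was called replicate 4.

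Members were found by symbol and mean CPM of the library totals. The same 34 were found with TMM-scaled CPM. The 34 members and the gene lists were chosen with earlier results of these data known. Counts were fitted in R 4.3.3 with edgeR 4.0.16 (limma 3.58.1): filterByExpr by group (minimum count 10, total 15), TMM factors, robust quasi-likelihood fits with 1 term per group over all 16 libraries, and 6 contrasts with two-sided F tests. Library totals of 24159673 to 32318888 counts and a common biological coefficient of variation of 5.25% set the precision. Summed classes and lists use CPM without TMM factors. No library was left out. Pairs of libraries of a group differed by more than sampling noise (chi-squared per degree of freedom of 2.59 to 15.4). On simulated data for irinotecan against DMSO (16430 genes), the fit recovered 44%, 64%, 84% and 98% of genes changed by 0.3, 0.5, 1 and 2 log2 units, and 5.84% of calls were false. The changed genes were drawn from all genes tested, whose median standard error with irinotecan was 0.08, against 0.24 for the tested histone genes. The recovery rates therefore do not carry over to the histone genes.

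Named members were the 2 of each histone class with the highest mean CPM, and per comparison up to 3 called members with the highest and up to 3 with the lowest change. Of each list, up to 3 genes with the smallest p per comparison could be named. Exon lengths, transcript models, stem-loops and shared 50-base stretches came from GENCODE 29, which had no entry for HIST2H2BC and lists HIST2H2BA as a transcribed pseudogene. Promoters came from RefSeq. Alternatives were DESeq2 1.42.0, median-ratio factors, library sizes alone, no filter on low counts, an adjusted p under 0.01, only the groups compared, the 12 numbered libraries with and without a replicate block, a mean of at least 1 CPM, members without those of mostly shared sequence, and leaving out each library in turn. Other settings for the gene lists were chosen after seeing the data. Python 3.11.15 with matplotlib 3.10.9 drew the figures.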

Additional observations from a re-analysis of the deposited data

Results flagged for a closer look

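In 136 groups of 4 libraries (34 genes in 4 groups), 11 held a library set apart from the other 3 by Dixon's test, or 8.09%. Chance flags about 1 in 20 such groups, and the counts per library are low, so these values are given without a reading. Among abundant members, HIST1H2AC had 17.3 CPM in irinotecan replicate 3 against 14.5 to 14.9 CPM in the others, and HIST1H2BK had 4.80 CPM in simvastatin replicate 4 against 5.28 to 5.30 CPM.

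HIST1H3H had 0.827 CPM in combination replicate 2 against 1.14 to 1.19 CPM, and HIST1H2BC had 0.797 CPM in irinotecan replicate 4 against 1.25 to 1.30 CPM. HIST1H3G had 0.151 CPM in simvastatin replicate 1 against 0.484 to 0.551 CPM, and HIST3H2BB had 0.138 CPM in simvastatin replicate 3 against 0.444 to 0.454 CPM.

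The other 5 were in genes too low to be tested. HIST1H3C had 0.516 CPM in DMSO replicate 4 against 0.207 to 0.252 CPM. HIST1H2BF had 0.756 CPM in DMSO replicate 1 against 0.194 to 0.248 CPM, and 0.363 CPM in simvastatin replicate 4 against 0.189 to 0.207 CPM. HIST1H4C had 0.0757 CPM in simvastatin replicate 1 against 0.379 to 0.413 CPM, and HIST1H2BG had 0.433 CPM in combination replicate 2 against 0.216 to 0.244 CPM.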

How the results depend on the processing

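No change of a called histone gene turned its direction under the alternatives run. HIST1H1C was called in all of them, in all 3 comparisons that called it. The 4 calls of the combination against DMSO became 2 at an adjusted p under 0.01, and 2 in the 12 numbered libraries without a block. The 2 calls of the combination against simvastatin became 1 with library sizes alone, 1 at an adjusted p under 0.01 and 1 in the 12 numbered libraries without a block. The most that an alternative gave in that comparison was 3 calls. With 1 library left out, irinotecan against DMSO gave 2 to 3 calls, the combination 3 to 5 against DMSO and 1 to 2 against simvastatin, and simvastatin against DMSO, the combination against irinotecan and the interaction 0. The single call against simvastatin came without simvastatin replicate 2 or 3 or combination replicate 2. The fits in the 12 numbered libraries have fewer libraries, and the cause of the other losses was not tested.

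The labels do not say that a replicate number marks a shared culture or day, so the numbers were not taken as pairing in the main fit. The data do not exclude a pairing. As a hint of a shared effect from the data, 4 of 18 same-numbered pairs correlated over 0.1 (from -0.0646 to 0.2) and no other pair did (up to 0.0975). Of 12 libraries, 9 correlated best with their own number. With a replicate block, irinotecan against DMSO gave 2 calls, the combination against DMSO 3 (HIST1H1C, HIST1H2BD and HIST1H3E), the combination against simvastatin 2, and the other comparisons 0.

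HIST3H2A with the combination was lost in the 12 numbered libraries too (adjusted p = 0.0906 without and 0.0552 with the block). HIST2H2AC was lost in the 12 numbered libraries with and without the block in both comparisons against DMSO (adjusted p from 0.0649 to 0.106). Scaling by library sizes alone changed list counts with irinotecan from 1 to 6 for histone mRNA processing and from 6 to 11 for chaperones, and DESeq2 gave 2 for the first. Depth limits the 8 genes not tested, and the least abundant tested members have the widest intervals.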
